A study of Homo sapiens with 8 samples.

Results

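The comparison described here asks what changed in Reh cells when IRF5-4D was added to IKKβ(EE). Reh is an established human line of precursor B cells, grown from an acute lymphoblastic leukaemia. Its members are the 4 of 8 arrays whose labels name IKKβ(EE): 2 arrays of cells transfected with IKKβ(EE) alone, and 2 of cells transfected with IRF5-4D together with IKKβ(EE). The other 4 arrays, mock cells that received control constructs and cells that received IRF5-4D alone, were used for the shared estimate of the spread and for values set side by side. IRF5-4D and IKKβ(EE) are constitutively active forms of IRF5 and of the IκB kinase β, per the study's design text. Both groups compared therefore carry the active kinase, and the combination differs from the other by the second construct. Each group had arrays numbered 1 and 3, described as biological duplicates, so that p-values measure the spread between these duplicates only. The promoters of the constructs, the share of cells that took them up and the time to harvest are not stated in the labels.

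IRF5 belongs to the interferon regulatory factors, a family of transcription factors. It acts downstream of Toll-like receptors, where phosphorylation lets it pair, enter the nucleus and bind interferon-stimulated response elements of cytokine, chemokine and interferon genes. IKKβ phosphorylates the IκB proteins that hold NF-κB in the cytoplasm, and their loss frees NF-κB to bind κB sites in genes of inflammation and survival. In macrophages and B cells both pathways are engaged by the same receptors.

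Expression was measured on Affymetrix U133 Plus 2.0 arrays and deposited as log2 values, so that a difference of 1 is a 2-fold change. For 19775 genes, 1 probe set each, duplicate arrays correlated with r of 0.994 to 0.997, and array medians lay between 5.098 and 5.136. A lower quartile of 3.67 to 3.73 marks levels that are not shown to lie above background, and a rise from there has an uncertain size. RNA quality, read as the 3′ minus 5′ log2 signal of the actin control, was 0.98 to 1.11 on the 4 arrays compared, against 1.36 and 1.38 on the mock arrays. Of 8 markers of B-lineage cells measured, 7 stood between 9.09 and 14.24 on the 4 arrays, among them DNTT, PAX5, EBF1 and CD79B. VPREB1 stood at 4.19 to 4.46, below every array's median. None of the 8 differed between the groups in the limma test (adjusted p at least 0.789).

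The transfected genes were read first, as a check of the labels. The IKBKB probe set that responded to the construct read 4.80 and 4.06 in mock cells, 12.57 and 10.98 with IKKβ(EE), and 11.11 and 9.33 in the combination (arrays 1 and 3, in this order throughout). All 4 arrays labelled with the kinase thus stood above all others, and the combination arrays overlapped those of IKKβ(EE) alone. The difference of -1.56 (SE 0.59) did not pass limma's test over every probe set (adjusted p = 0.354). Between arrays of the same number, however, the combination read lower both times. With a block for the array number in limma the SE was 0.34 and the adjusted p 0.0518. Whether a lower kinase level plays a part in any change below was not tested. The other IKBKB probe sets differed by 0.02 each. IRF5 is read by 3 probe sets. The one used read 6.95 and 7.13 with IKKβ(EE) and 8.0 and 7.82 in the combination, a rise of 0.88 (SE 0.13, limma adjusted p = 0.0103). On the arrays of IRF5-4D alone it read 7.15 and 7.25, against 6.93 and 7.06 in mock cells, so that this probe set separated its construct from mock by only 0.20 there. The other IRF5 probe sets rose by 0.50 (adjusted p = 0.266 in limma over every probe set) and 0.25 (0.63) between IKKβ(EE) and the combination. Between mock and IRF5-4D alone they differed by 0.57 and 0.05. Whether these probe sets lie within the constructs is not stated in the labels. The IRF5 call was lost without array 1 of IKKβ(EE) (adjusted p = 0.0986), its array 3 (0.0533) or array 1 of the combination (0.0671).

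Adding IRF5-4D changed 340 of 19775 genes at an adjusted p under 0.05 in limma, 1.72% of those tested. Of these, 271 (1.37%) rose and 69 (0.349%) fell. The rises were also the larger changes: their median was 1.21 and 26 were at least 8-fold, while the falls had a median of -0.97 and 2 were at least 8-fold. In all 340 the 2 arrays of one group lay apart from those of the other, which held by itself for 20.7% of all genes in each direction. The 15 largest rises included the cytokine and chemokine genes IL1RN, CCL4, CXCL11 and IL12A beside genes of unrelated function. Some rises started from the lowest levels on the array: 15 of the 271 had a mean below the lower quartile with IKKβ(EE) alone. The count depended on single arrays. It was 116 without array 1 of IKKβ(EE), 108 without its array 3 and 189 without array 1 of the combination, and between 249 and 347 when any other array was left out.

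**Figure D1:**
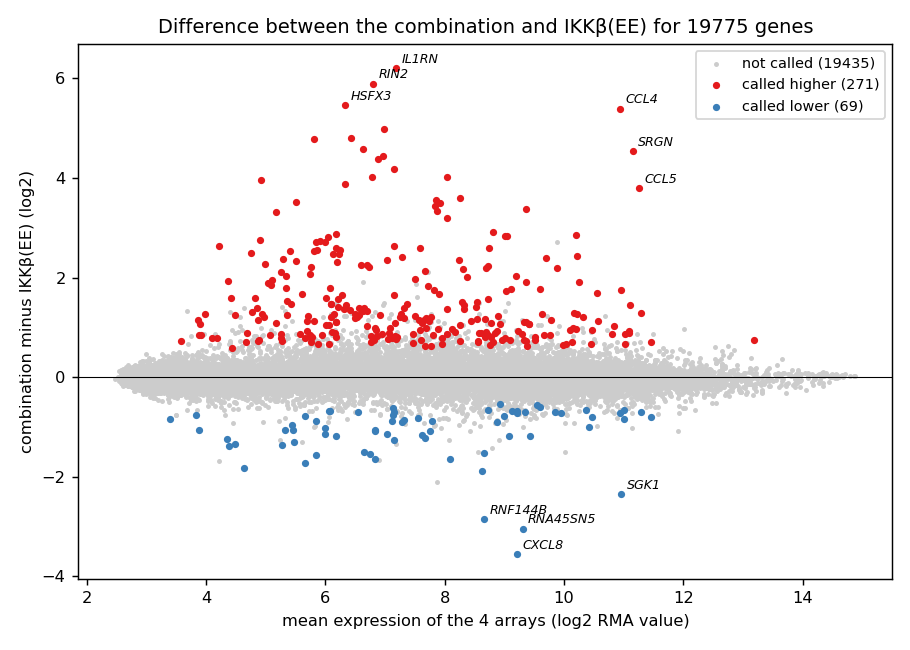
Difference between the combination and IKKβ(EE) (log2, vertical axis) against the mean level on the 4 arrays compared (log2, horizontal axis) for 19775 genes, 1 point per gene. Genes that rose (271) or fell (69) at an adjusted p under 0.05 in limma are coloured, and the largest rises reach 6.20 while the largest fall is -3.56.

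The largest rise was that of IL1RN, which encodes the interleukin-1 receptor antagonist, a secreted inhibitor of interleukin-1 signalling. It read 4.19 and 3.97 with IKKβ(EE) and 10.55 and 10.01 in the combination, a difference of 6.20 (SE 0.22) or 73.7-fold (limma adjusted p = 8.09e-06). The antagonist was thus near the floor of the arrays without IRF5-4D and above every array's upper quartile with it. Of its 5 probe sets, the lowest differed by -0.10, so the size belongs to the probe set used. IL12A, the p35 subunit shared by interleukin-12 and interleukin-35, rose from 6.05 and 6.02 to 10.68 and 9.42, by 4.02 (SE 0.34, 16.2-fold, adjusted p = 0.000415). EBI3, the other subunit of interleukin-35 and a subunit of interleukin-27, rose from 7.84 and 7.41 to 10.99 and 9.92, by 2.83 (SE 0.34, adjusted p = 0.00386). Both cytokine subunits were higher on each combination array than on each array of IKKβ(EE). LIF, a cytokine of the interleukin-6 family, rose by 2.26 (SE 0.28, adjusted p = 0.00445) from 5.52 and 5.42 to 8.25 and 7.19. These 4 were the members called among 37 measured interleukins and other cytokines (10.8%, against 1.37% of all genes called higher), none of which fell. The list's median difference was 0.19 and 29 members lay above 0, against a median of -0.0061 over all genes, 9622 of which lay above 0. Without array 3 of IKKβ(EE) the count of 4 became 2, with EBI3 and LIF no longer past the threshold.

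Chemokine ligands moved in both directions. Of 33 measured, 8 rose (24.2%, against 1.37% of all genes) and 1 fell (3.03%, against 0.349%), with a list median of 0.04. CCL4, which draws monocytes and T cells, read 9.01 and 7.48 with IKKβ(EE) and 13.84 and 13.44 in the combination, a rise of 5.39 (SE 0.57, 42.1-fold, limma adjusted p = 0.00166). Near-identical copies of CCL4 exist, and its single probe set may read them together. CXCL11, a ligand of CXCR3 induced by interferon, rose from 4.99 and 4.00 to 9.62 and 9.34, by 4.98 (SE 0.45, 31.6-fold, adjusted p = 0.000665). CCL5, which draws T cells and monocytes as well, rose from 9.77 and 8.95 to 13.62 and 12.68, by 3.79 (SE 0.34, 13.8-fold, adjusted p = 0.000558). All 3 were separate between the groups, and CCL4 and CCL5 ended well above the upper quartile of the arrays (at most 7.54). Further ligands passed the test, which the naming rule does not cover and which were chosen after their values were seen: CXCL9 (2.71), CCL2 (2.01), CCL8 (1.25), CCL20 (0.79) and CCL19 (0.59). CXCL8, which draws neutrophils and is a standard NF-κB target, went the other way. It read 11.23 and 10.74 with IKKβ(EE) and 7.56 and 7.30 in the combination, a fall of 3.56 (SE 0.39, 11.8-fold, adjusted p = 0.00202), so that both combination arrays lay below the mock arrays at 9.39 and 7.93. Its other probe set differed by -3.69. The count of 8 rises became 5 without array 1 or array 3 of IKKβ(EE) and without either array of IRF5-4D alone.

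**Figure D2:**
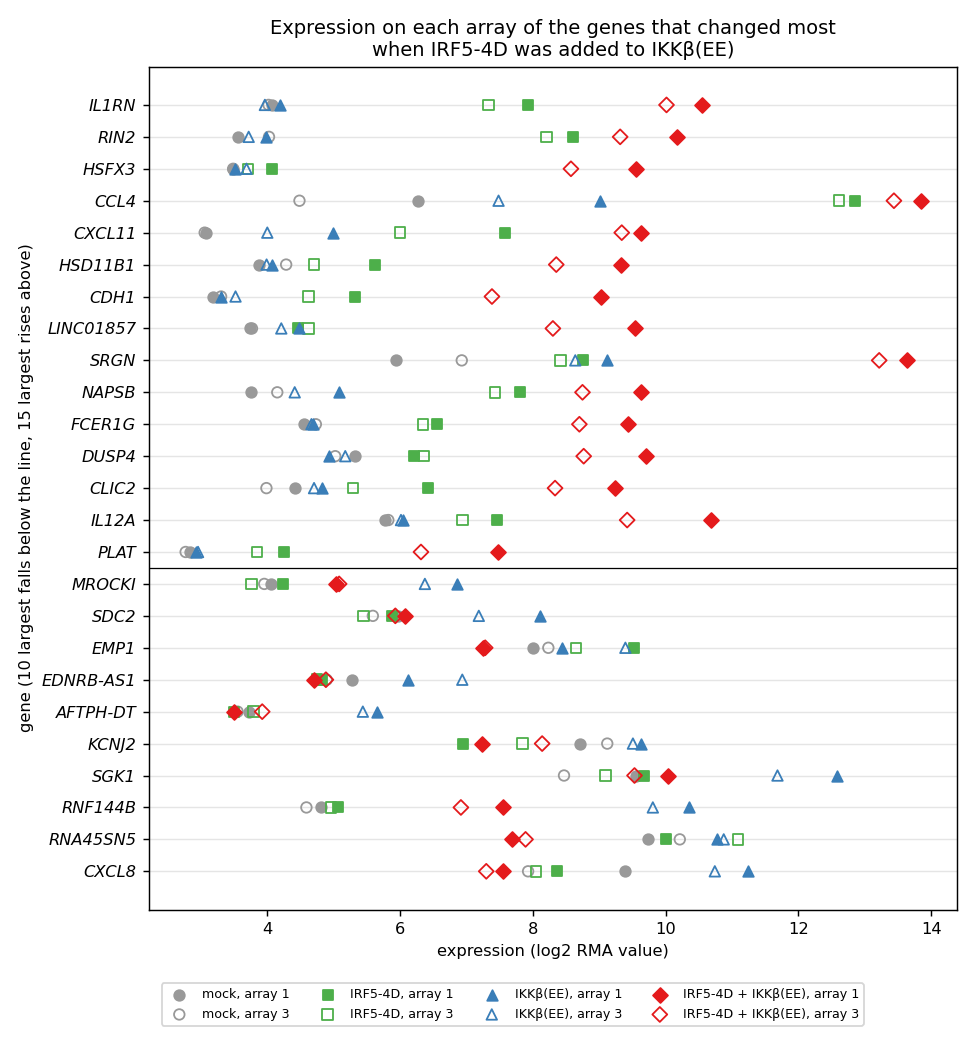
Level (log2) on each array of the 15 genes that rose most and the 10 that fell most. Points are single arrays, numbered 1 and 3, of mock cells, IRF5-4D alone, IKKβ(EE) alone and the combination. In every gene the points of IKKβ(EE) and of the combination are apart, from IL1RN (4.19 and 3.97 against 10.55 and 10.01) to MROCKI (6.86 and 6.38 against 5.03 and 5.08).

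IRF5 binds interferon-stimulated response elements, and promoters were searched for the letters of their core. The 4 largest of the named rises whose promoter entry in RefSeq (GRCh38.p14) holds a core of that element, GAAA, any 2 bases and GAAA on either strand, are shown, as the 250 bases before the start. Where a gene has several starts, the first by position that holds the core is shown. The core stands before 2 of 3 starts of IL1RN and 1 of 3 of CCR6, and FCRLA and ISG20 have 1 start each. Capitals mark the core. The genes are IL1RN (chr2:113127239-113127488, plus strand), FCRLA (chr1:161706979-161707228, plus strand), CCR6 (chr6:167111545-167111794, plus strand) and ISG20 (chr15:88638766-88639015, plus strand).
IL1RN: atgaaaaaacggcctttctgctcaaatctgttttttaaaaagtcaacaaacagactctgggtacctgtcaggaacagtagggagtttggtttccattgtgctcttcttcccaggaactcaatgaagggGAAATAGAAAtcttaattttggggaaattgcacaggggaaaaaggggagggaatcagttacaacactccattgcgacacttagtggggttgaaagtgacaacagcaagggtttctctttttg
FCRLA: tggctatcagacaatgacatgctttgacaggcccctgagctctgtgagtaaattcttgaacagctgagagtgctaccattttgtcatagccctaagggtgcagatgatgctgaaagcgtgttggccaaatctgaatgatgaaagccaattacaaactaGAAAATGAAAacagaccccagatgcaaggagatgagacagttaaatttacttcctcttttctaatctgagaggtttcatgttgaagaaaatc
CCR6: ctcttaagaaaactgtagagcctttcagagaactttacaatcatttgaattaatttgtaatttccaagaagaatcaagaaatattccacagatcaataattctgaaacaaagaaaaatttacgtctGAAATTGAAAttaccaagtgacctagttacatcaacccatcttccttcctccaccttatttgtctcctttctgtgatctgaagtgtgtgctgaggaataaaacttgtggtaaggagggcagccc
ISG20: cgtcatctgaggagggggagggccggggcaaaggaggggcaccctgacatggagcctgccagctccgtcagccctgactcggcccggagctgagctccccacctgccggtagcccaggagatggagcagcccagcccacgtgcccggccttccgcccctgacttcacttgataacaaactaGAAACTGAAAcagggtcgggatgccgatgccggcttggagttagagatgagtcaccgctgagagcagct
Counted from the start, the core lies at -122 to -113 in IL1RN, -92 to -83 in FCRLA, -124 to -115 in CCR6 and -69 to -60 in ISG20. Of the 208 genes that rose and have an entry, 26 (12.5%) held the core before at least 1 of their starts, against 522 (3.39%) of all 15384 genes with an entry. Of the 54 genes with an entry that fell, 5 (9.26%) held it. A κB site, searched on both strands as GGG, any 2 bases and TTTCC and chosen after values were seen, stood in 11 (5.29%) of the genes that rose, 5 (9.26%) of those that fell and 377 (2.45%) of all. The motifs can overlap, since the other strand of the κB site holds the letters GAAA, and a match of letters describes a sequence, not binding. CCL4 and CCL5 had no promoter entry.

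FCRLA, an intracellular Fc receptor-like protein of B cells, rose by 2.81 (SE 0.19, limma adjusted p = 0.000175) from 4.71 and 4.58 to 7.70 and 7.21. CCR6, the receptor of CCL20, read 3.55 and 3.49 with IKKβ(EE) and 7.03 and 5.51 in the combination, a rise of 2.75 (SE 0.46, adjusted p = 0.0204). ISG20, an exonuclease that degrades viral RNA, rose from 8.88 and 8.14 to 11.37 and 10.43, by 2.39 (SE 0.42, adjusted p = 0.0241). In each of the 3 the groups did not overlap, and the combination arrays of CCR6 were far from each other. CCR6 and ISG20 lost the call without array 1 of either group or array 3 of IKKβ(EE), and ISG20 also without either array of IRF5-4D alone.

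Several of the other large rises were genes of adhesion, trafficking and signalling. RIN2, which activates the endocytic GTPase RAB5, read 3.98 and 3.72 with IKKβ(EE) and 10.17 and 9.32 in the combination, a rise of 5.89 (SE 0.28, 59.3-fold, limma adjusted p = 2.3e-05). Its other probe set differed by 0.42. CDH1, the epithelial adhesion protein E-cadherin, rose from 3.31 and 3.52 to 9.02 and 7.39, by 4.79 (SE 0.44, 27.6-fold, adjusted p = 0.000661), with 0.15 on its other probe set. Both genes thus went from near the lower quartile to far above the array median on the probe set used, and much less on the other. SRGN, the core protein of secretory granules, was already at 9.12 and 8.64 and rose to 13.63 and 13.22, by 4.54 (SE 0.30, 23.3-fold, adjusted p = 0.000175), with 0.94 and 5.53 on its other probe sets. FCER1G, the signalling chain that Fc receptors share, rose from 4.69 and 4.67 to 9.43 and 8.70, by 4.39 (SE 0.21, 20.9-fold, adjusted p = 2.3e-05), and by 4.66 on its other probe set. DUSP4, a phosphatase that switches off MAP kinases, rose from 4.93 and 5.18 to 9.70 and 8.77, by 4.18 (SE 0.26, 18.2-fold, adjusted p = 0.000119). None of these 3 had overlapping groups, and FCER1G and DUSP4 rose on every probe set (3.75 to 5.01 for DUSP4).

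HSD11B1, which regenerates active cortisol from cortisone, rose from 4.07 and 3.99 to 9.32 and 8.35, by 4.81 (SE 0.35, limma adjusted p = 0.000182). PLAT, tissue plasminogen activator, rose from 2.92 and 2.96, below the lower quartile, to 7.47 and 6.32, by 3.95 (SE 0.31, adjusted p = 0.000302). CLIC2, an intracellular chloride channel protein, rose from 4.82 and 4.71 to 9.24 and 8.34, by 4.03 (SE 0.37, adjusted p = 0.000679). The combination arrays stood more than 3 log2 units above IKKβ(EE) in all 3. Less well described are HSFX3, LINC01857 and NAPSB. HSFX3, a member of the heat shock factor family on the X chromosome that has close copies there, rose from 3.51 and 3.69 to 9.55 and 8.57, by 5.46 (SE 0.27, 44.1-fold, adjusted p = 2.3e-05). The long non-coding RNA LINC01857 rose by 4.57 (SE 0.32) from 4.48 and 4.21 to 9.54 and 8.30. NAPSB, a pseudogene close in sequence to NAPSA, rose by 4.44 (SE 0.31) from 5.08 and 4.42 to 9.63 and 8.75. Probes of HSFX3 and NAPSB may read their relatives as well. The 15 largest rises all kept their call when any 1 of the 8 arrays was left out.

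Among the genes that fell, RNA45SN5 stands for the precursor of ribosomal RNA, which is encoded by many copies. It read 10.77 and 10.88 with IKKβ(EE) and 7.68 and 7.89 in the combination, a fall of 3.04 (SE 0.30, 8.22-fold, limma adjusted p = 0.0011), and its probe set may bind several transcripts. RNF144B, a ubiquitin ligase, read 10.36 and 9.81 with IKKβ(EE), 7.55 and 6.92 in the combination and 4.82 and 4.59 in mock cells. It fell by 2.85 (SE 0.23, 7.21-fold, adjusted p = 0.00036) and still stood above mock. SGK1, a kinase of salt and stress regulation, read 12.57 and 11.69 with IKKβ(EE), 10.04 and 9.53 in the combination and 9.56 and 8.47 in mock cells. It fell by 2.34 (SE 0.39, 5.08-fold, adjusted p = 0.0197). All 3 were lower on each combination array than on each array of IKKβ(EE). KCNJ2, an inward-rectifier potassium channel, fell by 1.88 (SE 0.33, adjusted p = 0.0248) from 9.63 and 9.51 to 7.24 and 8.14. It read 8.72 and 9.12 in mock cells. NR4A3, an immediate early nuclear receptor, fell by 1.51 (SE 0.15, adjusted p = 0.00102) from 7.57 and 7.22 to 6.0 and 5.77, and another of its probe sets differed by 0.01.

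The remaining large falls were smaller than 4-fold. EMP1, a membrane protein of epithelial cells, read 8.44 and 9.39 with IKKβ(EE) and 7.25 and 7.28 in the combination (-1.65, SE 0.33, limma adjusted p = 0.0421), but its 6 probe sets ranged from -1.65 to 0.12. SDC2, the heparan sulphate proteoglycan syndecan-2, read 8.10 and 7.19 against 6.07 and 5.93 (-1.64, SE 0.28, adjusted p = 0.0204). The non-coding transcripts named by the rule also fell: AFTPH-DT from 5.65 and 5.44 to 3.50 and 3.93 (-1.83), EDNRB-AS1 from 6.12 and 6.94 to 4.71 and 4.88 (-1.73) and MROCKI from 6.86 and 6.38 to 5.03 and 5.08 (-1.56). The strand that their probes read is not stated in the labels. The groups did not overlap in these 5. Without array 1 of the combination EDNRB-AS1, EMP1, SDC2, SGK1 and KCNJ2 lost the call. SDC2, SGK1 and KCNJ2 also lost it without array 1 of IKKβ(EE), KCNJ2 and EMP1 without its array 3, and SDC2, SGK1 and EMP1 without array 3 of the combination. EMP1 lost it without either mock array as well. The count of falls was 16 to 43 without array 1 or array 3 of IKKβ(EE), array 1 of the combination or either array of IRF5-4D alone, the lowest without array 1 of IKKβ(EE).

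Among 22 measured NF-κB subunits, inhibitors and members of the IKK complex 0 passed the test in either direction (5 at an unadjusted p under 0.05), with a median of 0.02. With 1.72% of all genes called, a count of 0 among 22 is near the background. The largest differences were those of NFKBIZ, a nuclear IκB protein (1.23, SE 0.28, limma adjusted p = 0.0784), and TNIP2, which binds the ubiquitin editor A20 (0.79, SE 0.18, adjusted p = 0.0671). Without array 1 of IKKβ(EE) 1 of the 22 rose, and without array 3 of the combination 2 did. Among 33 standard NF-κB targets 7 rose (21.2%, against 1.37% of all genes) and 1 fell (3.03%, against 0.349%), with a median of 0.28. TRAF1, an adaptor of TNF receptors, rose by 2.34 (SE 0.30, adjusted p = 0.00557) from 7.38 and 6.78 to 9.73 and 9.11. CCR7, the receptor that guides lymphocytes to lymph nodes, rose by 2.20 (SE 0.38, adjusted p = 0.0221) from 7.35 and 7.84 to 10.34 and 9.25. CFLAR, which blocks caspase-8, rose by 2.19 (SE 0.24, adjusted p = 0.00215) from 8.84 and 8.75 to 11.44 and 10.53, with 0.13 to 2.31 over its 14 probe sets. In these 3 every combination array was the higher. The others that rose were PLAU (2.17, chosen after its value was seen), CD40, LTB and CCL20, and the 1 that fell was CXCL8, described above. The count of 7 became 4 without array 1 of either group compared and 1 without array 3 of IKKβ(EE), where TRAF1 and CCR7 were among the calls lost.

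A part of the interferon-stimulated genes rose. Of 48 measured, 10 rose (20.8%, against 1.37% of all genes) and 0 fell (18 at an unadjusted p under 0.05, in either direction). The median was 0.23 and 39 lay above 0. After ISG20 the largest were IFI44L, from 3.85 and 4.41 to 6.53 and 5.62 (1.94, SE 0.30, limma adjusted p = 0.014), and EPSTI1, from 4.14 and 4.18 to 6.26 and 5.75 (1.84, SE 0.24, adjusted p = 0.00611). Their functions lie in the antiviral response and in stromal interaction of tumour cells. IRF9, the DNA-binding part of the complex that interferon receptors activate, rose from 7.09 and 7.05 to 8.50 and 8.98, by 1.67 (SE 0.18, adjusted p = 0.00172). The 3 genes had separate groups. IFIT5, IFIT1, MX1, GBP2, IFI27 and GBP4 were the other members that rose, and IFIT5 (1.57), IFIT1 (1.10), MX1 (1.08) and GBP2 (1.06) were chosen after their values were seen. The count of 10 was 3 without array 1 of IKKβ(EE), 4 without its array 3 or array 1 of the combination and 6 without either array of IRF5-4D alone.

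Among 22 measured interferon regulatory factors and the sensors upstream of them, 3 rose (13.6%, against 1.37% of all genes) and 0 fell (7 at an unadjusted p under 0.05). They were IRF5 and IRF9, given above, and IRF4, a factor of activated B cells and plasma cells. IRF5 is the gene of the added construct, so its rise is not shown to be a response of the cells. IRF4 read 6.62 and 6.42 with IKKβ(EE) and 9.03 and 7.94 in the combination, a rise of 1.97 (SE 0.33, limma adjusted p = 0.0197), and its 3 probe sets ranged from 0.07 to 1.97. The list's median was 0.07. Of the 3, only IRF9 kept its call without array 1 of either group compared or without array 3 of IKKβ(EE). In JAK-STAT signalling, through which interferons and cytokines act, 0 of 21 measured members passed, against 1.72% of all genes. Of the 21, 3 had an unadjusted p under 0.05. The median was 0.10, and SOCS7 (0.40, adjusted p = 0.506) and JAK2 (0.38, adjusted p = 0.233) differed most.

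**Figure D3:**
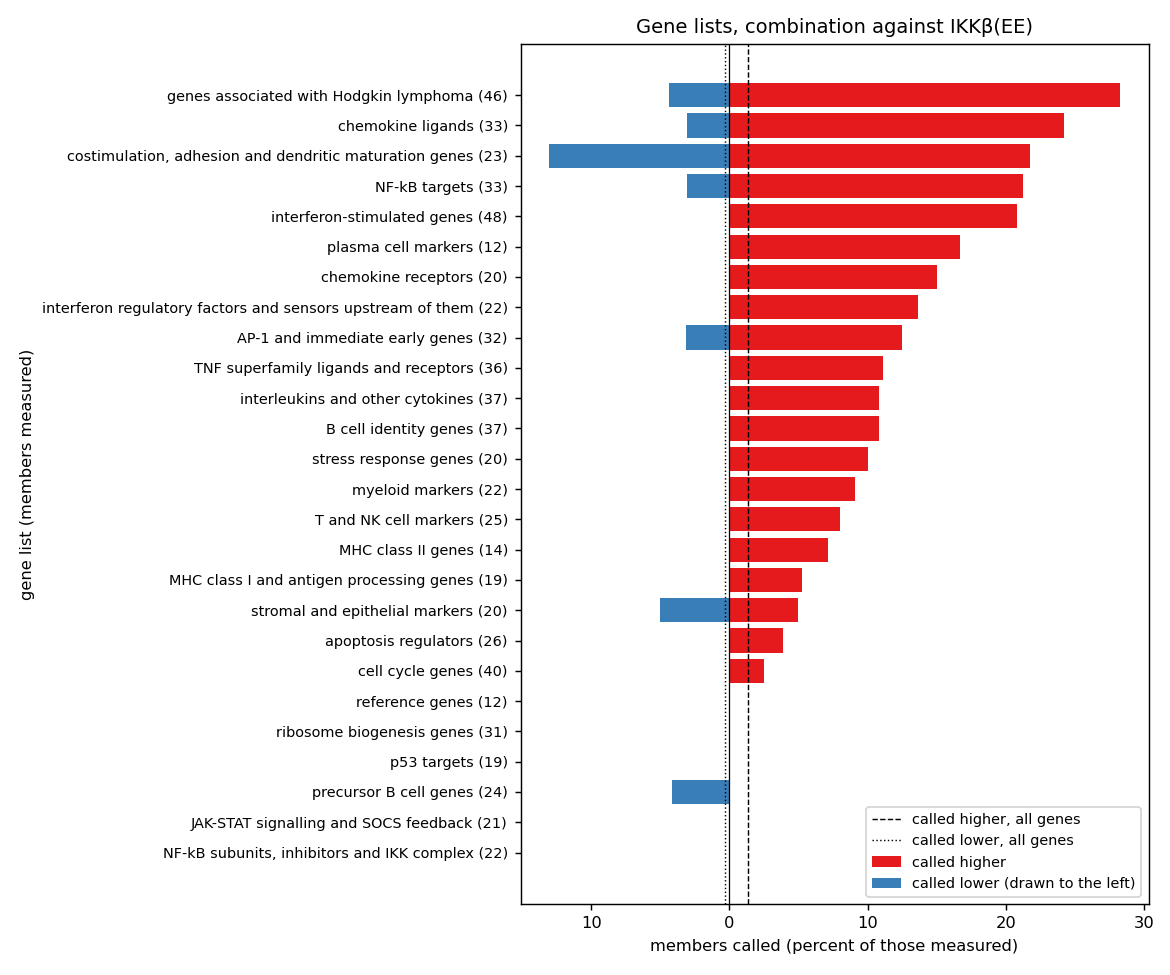
Share of the measured members of each gene list that were called in the combination against IKKβ(EE) (percent, horizontal axis). Bars to the right are members called higher and bars to the left members called lower. A dashed and a dotted line mark the shares of all genes called higher (1.37%) and lower (0.349%). Of the chemokine ligands 24.2% were called higher and 3.03% lower, while none of the 31 ribosome biogenesis genes was called.

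Among 36 ligands and receptors of the TNF superfamily 4 rose (11.1%, against 1.37% of all genes) and 0 fell (11 at an unadjusted p under 0.05). The list's median was 0.08. LTA, lymphotoxin α, read 7.76 and 7.59 with IKKβ(EE) and 11.40 and 10.70 in the combination, a rise of 3.38 (SE 0.20, 10.4-fold, limma adjusted p = 9.31e-05). Its partner LTB, lymphotoxin β, rose by 1.29 (SE 0.21, adjusted p = 0.0197) from 10.43 and 10.88 to 11.73 and 12.15, with -0.09 on its other probe set. TNFSF4, the OX40 ligand, rose by 2.43 (SE 0.24, adjusted p = 0.00102) from 9.15 and 8.86 to 11.85 and 11.02. CD40, the receptor by which T cells activate B cells, rose by 1.30 (SE 0.23, adjusted p = 0.0247) from 9.72 and 9.32 to 11.16 and 10.48. The arrays of the groups were separate in all 4. LTA and TNFSF4 kept the call when any array was left out. CD40 and LTB lost it without either array of IKKβ(EE), CD40 also without array 1 of the combination or either array of IRF5-4D alone, and LTB without array 3 of the combination.

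Of 23 genes of costimulation, adhesion and dendritic maturation, 5 rose (21.74%, against 1.37% of all genes) and 3 fell (13.04%, against 0.349%). The list's median was 0.04. SLAMF1, a self-ligand receptor of lymphocytes, rose from 6.58 and 5.77 to 10.48 and 8.88, by 3.51 (SE 0.51, 11.4-fold, limma adjusted p = 0.0104). CD48, the ligand of CD244, rose from 8.83 and 8.71 to 11.98 and 11.26, by 2.85 (SE 0.20, adjusted p = 0.000179). CD274, the checkpoint ligand PD-L1, rose from 4.55 and 4.18 to 5.66 and 5.50, by 1.21 (SE 0.19, adjusted p = 0.0141). CD40 and SLAMF7 were the other rises. The 3 that fell were FSCN1 (-1.15), CD86 (-1.02) and ICOSLG (-0.77), chosen after their values were seen. CD86 and ICOSLG are ligands of T cell costimulation and FSCN1 bundles actin in mature dendritic cells, so ligands of T cell receptors moved in both directions within the list. The 5 rises became 1 without array 3 of IKKβ(EE), 2 without array 1 of the combination and 3 without array 1 of IKKβ(EE) or either array of IRF5-4D alone. The 3 falls became 0 without array 1 of IKKβ(EE) and 1 without array 3 of either group compared or either array of IRF5-4D alone. In antigen presentation, 1 of 14 class II genes rose (7.14%, against 1.37% of all genes). It was HLA-DOB, which restrains peptide loading on MHC class II (1.26, SE 0.26, adjusted p = 0.0496). TAP1, a peptide transporter, was the 1 of 19 class I and processing genes (5.26%) that rose (0.87, SE 0.13, adjusted p = 0.014). Both lost the call without array 1 of either group compared and without array 3 of IKKβ(EE), and HLA-DOB also without either array of IRF5-4D alone.

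Of 20 measured chemokine receptors 3 rose (15%, against 1.37% of all genes) and 0 fell (5 of the 20 at an unadjusted p under 0.05), with a median of -0.02. Beside CCR6 and CCR7 these included ACKR3, which scavenges CXCL12, and which rose from 5.72 and 5.52 to 7.99 and 7.68, by 2.21 (SE 0.19, limma adjusted p = 0.000441). It was the 1 of the 3 that kept its call without array 1 of either group compared or array 3 of IKKβ(EE).

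Of 37 measured B cell identity genes 4 rose (10.8%, against 1.37% of all genes) and 0 fell (11 of the 37 at an unadjusted p under 0.05), with a median of 0.06. MS4A1, the CD20 antigen of mature B cells, read 7.16 and 5.72 with IKKβ(EE), 10.23 and 9.04 in the combination and 3.13 and 3.44 in mock cells. It rose by 3.20 (SE 0.46, 9.19-fold, limma adjusted p = 0.00993), and by at least 1.98 on each of its 4 probe sets. LYN, a Src-family kinase of the B cell receptor, rose by 1.92 (SE 0.18, adjusted p = 0.000872) from 8.49 and 8.32 to 10.62 and 10.02. FCRLA is given above, and SPIB, an Ets factor of B cells, rose by 0.67 (SE 0.12, adjusted p = 0.0221). In each of the 4 the combination arrays were the higher. Among 24 precursor B cell genes 0 rose and 1 fell (4.17%, against 0.349% of all genes). SMAD1, a mediator of bone morphogenetic protein signals, fell by 0.71 (SE 0.12, adjusted p = 0.0204) from 10.36 and 10.27 to 9.50 and 9.71. Without array 1 of the combination or array 3 of IKKβ(EE) the identity genes that rose were 2, with MS4A1 and SPIB lost. SMAD1 lost its call under the same conditions and without array 1 of IKKβ(EE), as did SPIB, which was also lost without array 3 of the combination.

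Hodgkin lymphoma is a B cell tumour in which NF-κB is active and B cell genes are low. Of 46 measured genes associated with it, 13 rose (28.3%, against 1.37% of all genes) and 2 fell (4.35%, against 0.349%). The list's median was 0.20. Most belong to groups given above (CCL5, LTA, EBI3, TRAF1, CCR7, CFLAR, IRF4, CD40, CD274, IRF5, CCL20, and the falls FSCN1 and CD86). IRF5 is counted among the 13 although it is the gene of the added construct. GATA3, a T cell transcription factor that Hodgkin cells also express, rose from 7.15 and 7.74 to 10.58 and 9.51, by 2.60 (SE 0.32, limma adjusted p = 0.00393), and BATF3 rose by 1.20, a value chosen after it was seen. GATA3 was higher on both combination arrays than on any of the other arrays compared. The 13 became 5 without array 3 of IKKβ(EE) and 7 without array 1 of the combination. The 2 falls became 0 without array 1 of IKKβ(EE), and 1 without array 3 of either group compared or either array of IRF5-4D alone.

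Of 32 AP-1 and immediate early genes 4 rose (12.5%, against 1.37% of all genes) and 1 fell (3.13%, against 0.349%), with a median of 0.14. Beside DUSP4 the rises were FOS, a subunit of AP-1, from 7.34 and 5.85 to 8.78 and 8.68 (2.13, SE 0.41, limma adjusted p = 0.0377), DUSP5, a nuclear phosphatase of ERK, from 4.12 and 4.28 to 7.13 and 5.50 (2.11, SE 0.40, adjusted p = 0.0353), and BATF3. The arrays of IKKβ(EE) were spread widely for FOS and those of the combination for DUSP5. The 4 became 2 without array 3 of IKKβ(EE) or either array of IRF5-4D alone, where FOS and DUSP5 lost the call. FOS also lost it without either combination array, and DUSP5 without array 1 of IKKβ(EE) or either mock array. The 1 fall, NR4A3, was joined by another without array 3 of the combination.

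The lists of growth, survival, stress and housekeeping genes are read against the 1.72% of all genes called. Of 40 cell cycle genes only CCND2, the D-type cyclin of B cells, rose (2.64, SE 0.30, limma adjusted p = 0.00246, from 5.73 and 5.93 to 9.05 and 7.90), and 0 fell (5 of the 40 at an unadjusted p under 0.05). The list's median was -0.06 and 9 members lay above 0. Of 31 ribosome biogenesis genes 0 passed (6 at an unadjusted p under 0.05), although only 2 lay above 0 and the median was -0.21. RRP12 (-0.46, adjusted p = 0.22) and POLR1C (-0.44, adjusted p = 0.175) differed most. These are protein genes, and the call for the ribosomal RNA precursor stands apart from them. Of 26 apoptosis regulators CFLAR alone rose, and of 19 p53 targets 0 passed (4 at an unadjusted p under 0.05), with SESN2 at 0.89 (adjusted p = 0.609) and TP53INP1 at -0.79 (adjusted p = 0.0671). Without array 3 of the combination the cell cycle and apoptosis lists each held 2 rises, and without array 1 of the combination 2 of the p53 targets fell. Of 20 stress response genes HSPB1 (1.50, SE 0.22, adjusted p = 0.012) and HSPA6 (0.92, SE 0.12, adjusted p = 0.00557), chaperones of the heat shock response, rose, and neither kept the call without array 1 or array 3 of IKKβ(EE). Of 12 reference genes 0 passed (0 at an unadjusted p under 0.05), among them ACTB and POLR2A, both at -0.16.

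Markers of other cells moved in single genes. Of 25 T and NK cell markers GATA3 and NKG7 (1.26) rose (8%, against 1.37% of all genes). The summed linear level of this list was 1309 and 1487 with IKKβ(EE) and 2480 and 1827 in the combination. Of 22 myeloid markers FCER1G and MARCO (1.12) rose (9.09%), and the sums of this list were 1801 and 1897 against 2668 and 2003. Both sums were higher on the combination arrays, but the list medians were -0.03 (12 of 25 above 0) and 0.03 (12 of 22 above 0). A linear sum follows large rises of single genes, here GATA3 (2.60) and FCER1G (4.39), more than the list as a whole. What part other cells have in these rises was not tested. Among 20 stromal and epithelial markers CDH1 rose (5%) and ACTA2 (-0.82) fell (5%, against 0.349% of all genes). Among 12 plasma cell markers IRF4 and SLAMF7 (0.70) rose (16.7%). SLAMF7 differed by up to 3.46 on its other probe sets. The summed levels of these 2 lists overlapped between the groups. Of 7 defining markers of the other types, CD3D, CD3E, CD14, LYZ and EPCAM lay below the array median on all 4 arrays (3.03 to 4.85). CSF1R, a myeloid marker (5.49 to 5.75), and COL1A1, a stromal marker (7.44 to 7.52), lay above it, and neither differed between the groups in limma (adjusted p at least 0.949). In RNA from whole cultures, more cells that express a gene and more RNA per cell cannot be told apart. NKG7 lost its call without either array of IKKβ(EE) and MARCO without its array 3. ACTA2 lost it without array 1 of IKKβ(EE), either combination array or either array of IRF5-4D alone. SLAMF7 lost it without any 1 of these or array 3 of IKKβ(EE).

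The same construct was also added without the kinase, in a comparison of IRF5-4D alone with mock cells that shares no array with the one above. There 63 genes passed (0.319% of those tested), 62 of which rose (0.314%). Of these 62, 49 (79.0%) were also among the 271 that rose when IRF5-4D was added to IKKβ(EE), and they make up 18.1% of the 271. The 271 had a median difference of 0.35 between IRF5-4D and mock, and 235 of them lay above 0, against 9041 of all 19775 genes. The 69 that fell had a median of -0.06 there, with 28 above 0, and 0 of them passed. FCRLA rose by 2.89 without and 2.81 with the kinase (interaction -0.09, SE 0.27), and CCL5 by 3.70 and 3.79 (interaction 0.09, SE 0.47). RIN2 rose by 4.61 without and 5.89 with it, and NAPSB by 3.66 and 4.44. CCL4 rose by 7.35 without the kinase, from 6.28 and 4.49 in mock cells to 12.85 and 12.61, and by 5.39 with it, a difference that was not past the threshold (interaction -1.95, SE 0.81, limma adjusted p = 0.765). The count of 63 was 24 without array 1 of IRF5-4D, 29 without its array 3 and 34 without mock array 1.

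**Figure D4:**
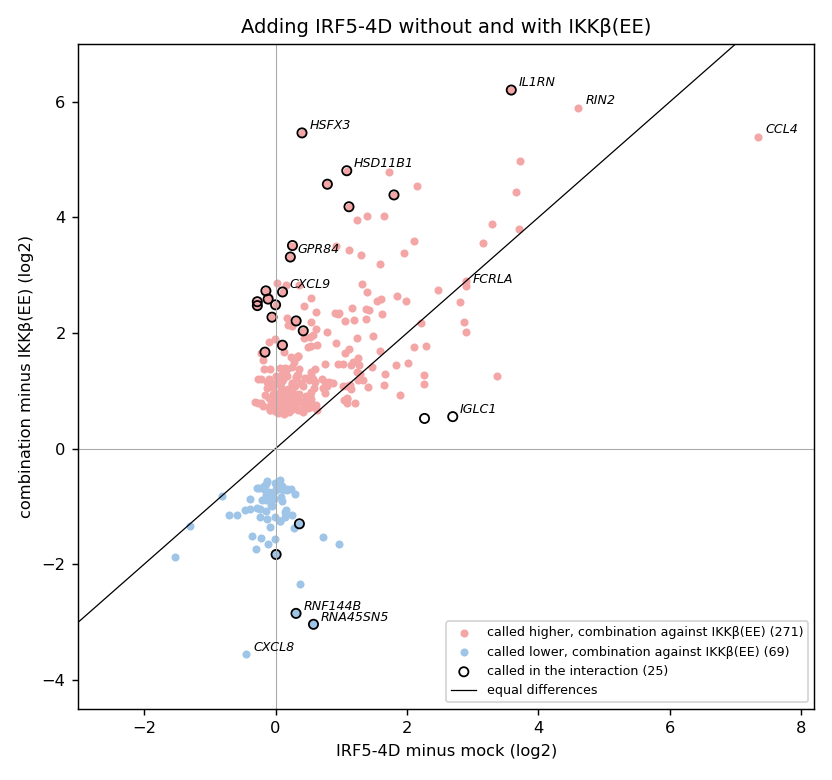
Difference on adding IRF5-4D to IKKβ(EE) (log2, vertical axis) against the difference on adding it to mock (log2, horizontal axis), with the line of equal differences. Coloured points are the genes called higher (271) or lower (69) in the combination against IKKβ(EE). Open circles mark the 25 genes that pass the test of the difference between the 2, among them HSFX3 (5.46 against 0.40) and RNA45SN5 (-3.04 against 0.58). CCL4 (5.39 against 7.35) does not pass.

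The interaction tests whether adding IRF5-4D made another difference with the kinase than without it. It passed for 25 genes (0.126%), 19 with a positive (0.0961%) and 6 with a negative value (0.0303%). HSFX3 had the largest positive one: the arrays of IRF5-4D alone read 4.07 and 3.71 and mock 3.49 and 3.49, so that it differed by 0.40 without the kinase and by 5.46 with it (interaction 5.06, SE 0.38, limma adjusted p = 0.00576). LINC01857 (0.79 without, 4.57 with) and HSD11B1 (1.08 and 4.81) followed, with interactions of 3.79 (SE 0.45, adjusted p = 0.0238) and 3.72 (SE 0.49, adjusted p = 0.0336). TMCC3, a coiled-coil protein of the endoplasmic reticulum, read 3.47 and 4.03 with IKKβ(EE), 7.83 and 6.69 in the combination and at most 4.05 in the other groups. GPR84, a receptor of medium-chain fatty acids, read 3.53 and 3.49, then 7.21 and 6.43, and at most 3.84 elsewhere. In these 5 genes both combination arrays stood above all 6 others. IL1RN (3.59 without, 6.20 with) and FCER1G (1.80 and 4.39) rose in both settings and more with the kinase.

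Of the negative interactions, RNA45SN5 read 10.01 and 11.09 with IRF5-4D alone and 9.73 and 10.21 in mock cells, so that only the combination was low (interaction -3.62, SE 0.43, limma adjusted p = 0.0238). With its probe sets averaged the interaction was -3.13 (adjusted p = 0.0614). Without probe sets that may bind several transcripts it was -2.635 (adjusted p = 0.0732), so that neither passed the threshold. RNF144B (-3.16, SE 0.32, adjusted p = 0.0155) and AFTPH-DT (-1.84, SE 0.24, adjusted p = 0.0345) were high with IKKβ(EE) alone, and the others read 4.59 to 7.55 and 3.50 to 3.93. The 4 probe sets of RNF144B differed by -2.85 to -1.0 between the combination and IKKβ(EE), and with them averaged its interaction was -1.70 (adjusted p = 0.0614), no longer past the threshold. The immunoglobulin λ genes IGLC1 (-2.14, SE 0.29, adjusted p = 0.0355) and IGLV1-44 (-1.74, SE 0.25, adjusted p = 0.0457) had another shape. IGLC1 read 9.74 and 9.17 in mock cells, 12.34 and 11.95 with IRF5-4D, 12.69 and 12.45 with IKKβ(EE) and 13.15 and 13.10 with both, so that adding IRF5-4D to the kinase gave 0.55 (adjusted p = 0.312). Their probe sets may read several λ genes, and without such probe sets the interaction was 0.01 for IGLC1 and 0.08 for IGLV1-44. The count of 25 was 0 without array 3 of IRF5-4D (1077 at an unadjusted p under 0.05), 2 without its array 1 or without array 1 of IKKβ(EE), 3 without array 3 of IKKβ(EE), 14 without mock array 1 and 80 without array 3 of the combination.

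The size of the rises differed between the numbered arrays. Taken between arrays 1 alone, the 271 genes that rose had a median difference of 1.38, and between arrays 3 alone 1.07, and 194 were larger between arrays 1. The 69 that fell had medians of -0.92 and -0.95, with 36 larger in size between arrays 1. CDH1 was higher by 5.72 between arrays 1 and by 3.86 between arrays 3, and CCL4 by 4.84 and 5.95, so that single genes went either way. The labels do not say what the numbers stand for.

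**Figure D5:**
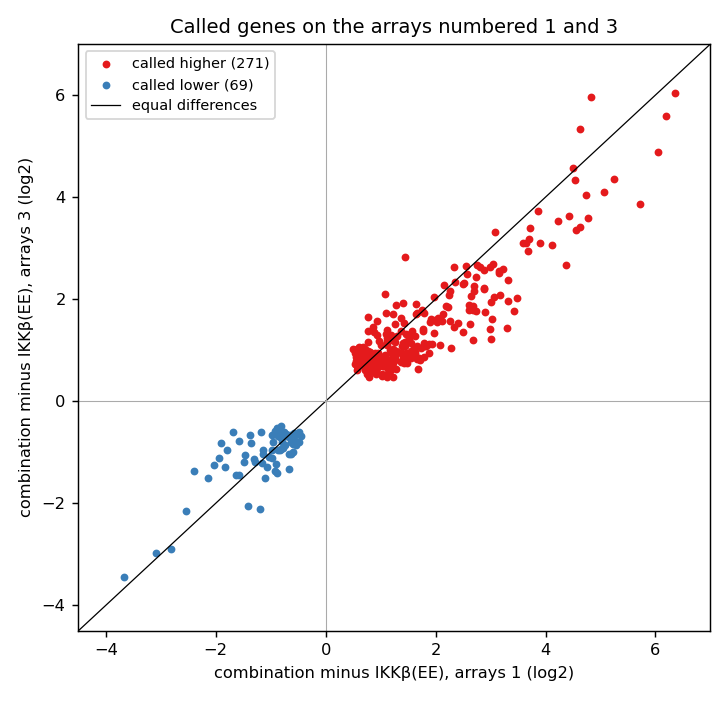
Difference between the combination and IKKβ(EE) in arrays 3 (log2, vertical axis) against that in arrays 1 (log2, horizontal axis) for the 340 genes that passed the test, with the line of equal differences. Of the 271 that rose, 194 lie below the line, and the 69 that fell lie on both sides of it.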

How the data were processed

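The authors deposited log2 values, 1 for each probe set on each array. They come from RMA, per the submitters' processing notes, a method of background correction, quantile normalization and summary of probes. Its version was not given in the sources used here. Quantile normalization sets all arrays to 1 distribution, so a change in total RNA is not seen. Of 54675 probe sets, 62 controls and 13522 others without exactly 1 symbol in the platform annotation were left out. The 41091 used (41037 found in RefSeq, 0 symbols changed) gave 19775 genes, each read by its probe set with the highest mean over 8 arrays. No filter on level was set.

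Group means were fitted to all 8 arrays in limma 3.58.1 under R 4.3.3 (lmFit, eBayes, 4 residual and 5.09 prior degrees of freedom), with Benjamini-Hochberg adjustment over all genes and calls at an adjusted p under 0.05. The moderated standard error (SE) had a median of 0.14 in the comparison and 0.199 in the interaction. For IRF5 and IKBKB the fit was also run over every probe set. The procedure was tested on simulated data. Alternatives changed the choice of probe sets, a level filter, the scaling, the limma options, a block for the array number, the groups fitted and the threshold, or left out each array in turn, which leaves a lone array assumed to vary like the other groups.

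The comparison, the gene lists and the rule for named genes were chosen with earlier results of these data known, and lists are described by counts and medians with no test. The rule covers IRF5 and IKBKB, the 15 largest rises and 10 largest falls, the 5 largest interactions in each direction, and up to 4 called members of each of 26 lists, or 2 as values where none was called. Some genes stand in several lists. Promoters are RefSeq entries of GRCh38.p14, matched by symbol for 15384 genes, and a gene counted if any of its starts held the motif.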

Additional observations from a re-analysis of the deposited data

Results flagged for a closer look

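In 14 named genes the effect of adding IRF5-4D differed between cells with and without IKKβ(EE), by the interaction in limma (adjusted p under 0.05). The difference was positive for HSFX3 (5.06), LINC01857 (3.79), HSD11B1 (3.72), TMCC3 (3.26), GPR84 (3.09), DUSP4 (3.07), IL1RN (2.62), FCER1G (2.59) and ACKR3 (1.90). DUSP4 differed by 1.12 without and 4.18 with the kinase, and ACKR3 by 0.31 and 2.21. It was negative for RNA45SN5 (-3.62), RNF144B (-3.16), IGLC1 (-2.14), AFTPH-DT (-1.84) and IGLV1-44 (-1.74). In EMP1 and SMAD1 adding IRF5-4D moved both arrays up without the kinase and both down with it. Their interactions, -2.62 (SE 0.46, adjusted p = 0.116) and -0.89 (SE 0.17, adjusted p = 0.142), did not pass limma's test, so that a difference is not shown.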

How the results depend on the processing

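Of the 66 named genes called in the comparison, 34 kept the call when any 1 array was left out and 44 under all other alternatives. The count of 340 genes (271 higher, 69 lower) became 569 (436 and 133) with every probe set on its own, 179 (139 and 40) with genes above the median level only, 206 (173 and 33) with a 2-fold change required, and 547 (417 and 130) at an adjusted p under 0.1. It was 225 (42 lower) when only the 2 groups compared were fitted. With a replicate block it was 511 (132 lower), and the interaction 56. The numbers 1 and 3 are not shown to pair the arrays: deviations of the same number correlated at -0.0729 to 0.343 between groups. With probe sets averaged by gene 279 genes passed, 233 of them among the 340. When 1 array was left out the count ranged from 108 to 347 (85 to 282 higher, 16 to 74 lower).

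The interaction's 25 genes became 9 with probe sets averaged, 0 with genes above the median level only (597 at an unadjusted p under 0.05), 40 at an adjusted p under 0.1, and 0 to 80 when 1 array was left out. The 63 genes of IRF5-4D against mock became 100 with every probe set on its own, 41 above the median level and 24 to 83 when 1 array was left out.

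Changes of sign were few. The IKBKB probe set used for the gene is not the one that responded to the construct, and its difference was near 0. It was -0.0453 after centring and -0.00774 after quantile normalization. With all IKBKB probe sets averaged the difference was -0.508, and the probe set that responded to the construct differed by -1.56. When 1 array was left out the probe set used ranged from -0.0662 (without array 3 of the combination) to 0.105, also in the fit over every probe set. A further IKBKB probe set was -0.000729 after centring and -0.0441 after quantile normalization, and ranged from -0.135 to 0.166 when 1 array was left out. Without probe sets that may bind several transcripts, the interaction was 0.0127 for IGLC1 and 0.0787 for IGLV1-44. With 2 arrays a group, small differences are not resolved.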
